A study of Mus musculus with 8 samples.

Results

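Transcripts of 10 genes that control entry into the cell cycle were followed in mouse heart ventricles: the D-type cyclins Ccnd1, Ccnd2 and Ccnd3, the kinases Cdk4 and Cdk6, the CIP/KIP inhibitors Cdkn1a and Cdkn1b, and the INK4 inhibitors Cdkn2a, Cdkn2b and Cdkn2c. They were taken by symbol from the 35275 genes of the deposited table, in which all 10 were found. The 4 RBX2iCKO ventricles carried a knockout of Rbx2 (Rnf7) induced in the adult by tamoxifen through Mer-Cre-Mer, a Cre recombinase that the αMHC promoter drives in cardiomyocytes, and the 4 WT ventricles are labelled as wild type and also received tamoxifen. The labels give no age and no interval after tamoxifen. They also do not say whether each library is a separate mouse, so the spread that p-values measure could be technical. RBX2 is a RING protein that works with cullin 5 in ubiquitin ligases. The labels name cardiomyocytes as the cell type, while polyA RNA was taken from minced ventricle.

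D-type cyclins bind CDK4 and CDK6, and the active kinases phosphorylate the retinoblastoma protein, which releases E2F factors that switch on genes of DNA replication. INK4 proteins bind CDK4 and CDK6 and keep D-type cyclins off them, and CIP/KIP proteins bind cyclin-CDK complexes, most strongly inhibiting those of CDK2. Most adult mouse cardiomyocytes have left the cell cycle, while fibroblasts, endothelial cells and macrophages of the heart can still divide. The amounts of cyclins and inhibitors are also set by ubiquitin-dependent turnover of the proteins, which transcript values do not measure.

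Levels are FPKM (fragments over gene length and library depth), so genes are compared per length. Differences were taken between log2(FPKM + 1) values, with RBX2iCKO minus WT as the sign, a scale that makes changes of weakly expressed genes look smaller. They were tested with limma with Benjamini-Hochberg adjustment over 13050 genes with a mean of at least 0.5 FPKM. Genes past an adjusted p of 0.05 are called changed, and a fold is a ratio of mean FPKM. Of the 10 genes, 8 reached that mean, and Cdkn2a and Cdkn2b did not.

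Of the 8 tested transcripts, 7, all but Ccnd1, rose in RBX2iCKO ventricles, and none fell, in a comparison that called 33.5% of all tested genes higher and 3.52% lower. The median difference of all tested genes was 0.21 on the log2 scale, against 0.44 for the 8 genes. After median-of-ratios scaling, which moves the median of all genes to 0.00, the median of the 8 genes was 0.21 and Cdkn2c alone rose, where 8.14% of all genes were called higher and 11.6% lower. The deposited groups did not overlap for Cdk4, Cdk6, Cdkn1a, Cdkn1b and Cdkn2c, with every RBX2iCKO value above every WT value, as for 34% of all tested genes. After scaling this held for Cdk6 and Cdkn2c, and for 10.8% of all tested genes. None of the 10 lay wholly below WT as deposited, as 3.79% of tested genes did. Cdkn2c was also the one gene called under quantile normalization, which called 6.62% of tested genes higher and 9.51% lower. The same held with mitochondrially encoded genes removed and each library then rescaled to its former summed FPKM. That setting tested 9 of the 10 genes and called 9.25% of 13830 genes higher and 7.12% lower. A fit to recovered fragments with limma voom called the same 7 genes higher, against 34.4% of tested genes higher and 3.59% lower.

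Fragment totals behind the FPKM were 18758692 to 23043686 in RBX2iCKO and 18513924 to 22558094 in WT libraries. The deleted gene Rnf7 had 7.53, 7.08, 6.86 and 7.13 FPKM in RBX2iCKO replicates 1 to 4, against 36.7, 35.3, 40.7 and 36.5 FPKM in WT replicates 1 to 4 (limma adjusted p = 5.8e-07). Reads of Esr1, whose ligand-binding part Mer-Cre-Mer contains, stood at 266 to 391 FPKM in RBX2iCKO and 0.203 to 2.06 FPKM in WT libraries. The WT sample titles also carry the letters MCM, and the labels do not say whether WT mice had the transgene. Since Esr1 reads were high in the RBX2iCKO libraries only, effects of the knockout and of the transgene cannot be told apart. Mitochondrially encoded transcripts took 14.6% to 18.9% of fragments in RBX2iCKO and 22.5% to 25.0% in WT libraries. Since FPKM divides by the library's total, such a difference moves with the values of other genes, and its part in the results below was not tested.

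Markers of other cell types were counted in the same fit, in which 33.5% of all tested genes were called higher as deposited and 8.14% after scaling. Of 12 fibroblast markers, 11 rose, and 10 after scaling, with summed levels of 1661 to 2597 FPKM in RBX2iCKO and 939 to 1395 FPKM in WT libraries. Dcn, a fibroblast proteoglycan, averaged 565 ± 147 FPKM in RBX2iCKO and 258 ± 49.3 FPKM in WT (SD, n = 4 each). Of 12 endothelial markers 6 rose, and 0 after scaling (303 to 343 against 225 to 294 FPKM summed), and of 12 macrophage markers 4 rose, and 2 after scaling (209.3 to 411 against 125 to 251 FPKM). Of 10 mural cell markers 2 rose and 1 fell, with 1 each after scaling (257 to 426 against 311 to 400 FPKM). None of the 4 lymphocyte markers tested was called. Cardiomyocyte markers summed to 32596 to 38104 FPKM in RBX2iCKO and 34079 to 36268 FPKM in WT, with 3 of 12 higher and 2 lower as deposited, and 0 higher and 3 lower after scaling. The lymphocyte markers Cd79a and Ms4a1 were at 0 in some libraries but not in all, and no marker of the other 5 cell types was at 0 in any library. The part of these cell types in the differences of the cyclins and inhibitors was not tested, and in bulk ventricle a different number of cells of a type and a different amount of RNA per cell cannot be told apart.

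**Figure D1:**
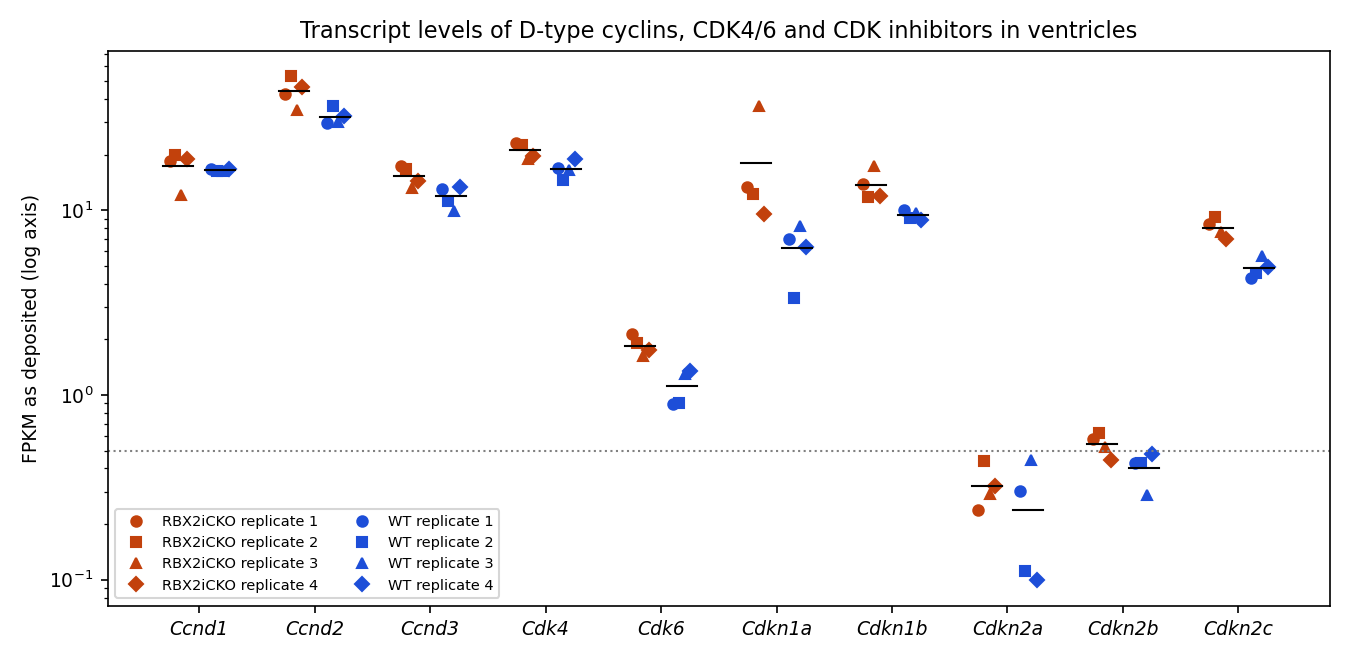
FPKM as deposited (log axis) of the 10 genes in the 4 RBX2iCKO and 4 WT libraries, 1 symbol per replicate, with group means as horizontal lines. The dotted line marks 0.5 FPKM, the mean level needed to enter the test, and Cdkn1a in RBX2iCKO replicate 3 stands at 36.7 FPKM above the other values of that gene.

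Among the D-type cyclins, Ccnd2 and Ccnd3 rose and Ccnd1 was not called. Ccnd1 (ENSMUSG00000070348, mm10 chr7:144929931-144939925, minus strand) had 18.5, 19.9, 12.1 and 18.9 FPKM in RBX2iCKO replicates 1 to 4 and 16.7, 16.4, 16.2 and 16.6 FPKM in WT replicates 1 to 4. RBX2iCKO replicate 3 lay below every WT library and the other RBX2iCKO libraries above them. The log2 difference was 0.05 (95% interval -0.25 to 0.35, limma adjusted p = 0.784), and after scaling -0.21 (-0.51 to 0.09, adjusted p = 0.31). Without RBX2iCKO replicate 3 it was 0.20, past the threshold (adjusted p = 0.0324), where the median of all tested genes was 0.21. Without that replicate and after scaling, the Ccnd1 difference was -0.06 (limma adjusted p = 0.59).

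Ccnd2 (ENSMUSG00000000184, chr6:127125162-127152193, minus strand), the most abundant of the 10 transcripts, had 42.4, 53.2, 34.7 and 46.6 FPKM in RBX2iCKO and 29.5, 36.6, 30.1 and 32.3 FPKM in WT ventricles. The groups overlapped, since RBX2iCKO replicate 3 lay under WT replicate 2. Means were 44.2 ± 7.76 FPKM in RBX2iCKO and 32.1 ± 3.24 FPKM in WT (SD, n = 4 each), a 1.38-fold difference (log2 0.44, SE 0.13, limma adjusted p = 0.0253). Overexpression of this cyclin in mouse cardiomyocytes is known to drive them into DNA synthesis. The scaled difference was 0.17 (adjusted p = 0.406).

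Ccnd3 (ENSMUSG00000034165, chr17:47505051-47599691, plus strand), the D-type cyclin best known from lymphocytes and skeletal muscle, had 17.3, 16.6, 13.2 and 14.4 FPKM in RBX2iCKO and 13.1, 11.2, 9.88 and 13.4 FPKM in WT ventricles. The groups overlapped, since RBX2iCKO replicate 3 lay under WT replicate 4. The 1.29-fold difference (log2 0.35, SE 0.11) had a limma adjusted p of 0.0403, and of 0.571 after scaling (log2 0.10). Neither of these calls held with every library left out in turn. Ccnd2 was not called without RBX2iCKO replicate 2 or 4 or WT replicate 1, 3 or 4 (adjusted p = 0.0512 to 0.0622), and Ccnd3 was not called without RBX2iCKO replicate 1, 2 or 4 or WT replicate 2 or 3 (0.0574 to 0.0969).

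The make-up of the D-type cyclin transcripts differed within libraries, which scaling cannot alter. Ccnd1 made up 22.4% ± 1.63 of the summed FPKM of the 3 cyclins in RBX2iCKO and 27.3% ± 1.51 in WT libraries (SD, n = 4 each), with no overlap between 20.2% to 23.7% and 25.5% to 28.8%. Ccnd2 made up 57.4% ± 2.23 in RBX2iCKO and 53.1% ± 3.09 in WT, a difference of 4.36 percentage points with overlapping groups. Ccnd3 took 20.2% ± 2.19 in RBX2iCKO and 19.6% ± 2.45 in WT. The ratio of Ccnd2 to Ccnd1 was 2.29, 2.67, 2.86 and 2.47 in RBX2iCKO replicates 1 to 4 and 1.76, 2.24, 1.86 and 1.94 in WT replicates 1 to 4, so every RBX2iCKO library stood above every WT library. These ratios over chosen genes are descriptions and carry no test.

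Both kinase partners rose as deposited. Cdk4 (ENSMUSG00000006728, chr10:127063534-127067920, plus strand) had 23.1, 22.4, 18.9 and 19.8 FPKM in RBX2iCKO and 17.0, 14.6, 16.4 and 18.8 FPKM in WT ventricles. The lowest RBX2iCKO library, replicate 3, lay just above the highest WT library, replicate 4. Means were 21.0 ± 2.06 FPKM in RBX2iCKO and 16.7 ± 1.74 FPKM in WT (SD, n = 4 each), with a log2 difference of 0.32 (SE 0.09, limma adjusted p = 0.0289). After scaling the difference was 0.06 (adjusted p = 0.637), and as deposited it was not called without RBX2iCKO replicate 1 or 2 or WT replicate 1, 2 or 3 (adjusted p = 0.0539 to 0.0727).

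Cdk6 (ENSMUSG00000040274, chr5:3341485-3531008, plus strand), the other D-type cyclin partner, was lower than Cdk4 in every library, with 2.13, 1.91, 1.62 and 1.75 FPKM in RBX2iCKO and 0.897, 0.902, 1.29 and 1.35 FPKM in WT ventricles. Every RBX2iCKO library lay above every WT library, also after scaling. The means of 1.85 ± 0.217 FPKM in RBX2iCKO and 1.11 ± 0.246 FPKM in WT (SD, n = 4 each) gave a 1.67-fold difference (log2 0.44, SE 0.11, limma adjusted p = 0.0144). That call held with each library left out in turn, but not after scaling (log2 0.28, adjusted p = 0.0856). Cdk6 made up 8.08% ± 0.266 of the summed Cdk4 and Cdk6 FPKM in RBX2iCKO and 6.21% ± 0.998 in WT libraries, without overlap.

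Cdk4 is shown with its promoter because the window held 4 copies of CACGTG, the E-box to which MYC and related factors can bind. The 250 bases before the RefSeq start (GRCm38.p6, chr10:127063285-127063534, plus strand) are given with that palindrome in capitals, 172, 118, 98 and 11 bases before the start. Of 32851 RefSeq promoter windows of that length, 6.02% held at least 1 copy and 0.0213% held 4 or more.

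Cdk4: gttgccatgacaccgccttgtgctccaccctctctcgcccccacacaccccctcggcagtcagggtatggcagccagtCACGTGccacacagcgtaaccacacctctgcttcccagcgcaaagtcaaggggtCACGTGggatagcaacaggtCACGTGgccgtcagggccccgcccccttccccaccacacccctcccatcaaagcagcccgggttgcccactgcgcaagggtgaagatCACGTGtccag

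The CIP/KIP inhibitors Cdkn1a and Cdkn1b rose as deposited, while Cdkn1c, the other gene of that family, was not called. Cdkn1a had the largest log2 difference of the 8 tested genes, with a wide spread. Cdkn1a (ENSMUSG00000023067, chr17:29090976-29100727, plus strand) encodes p21, which p53 induces after DNA damage. It had 13.3, 12.3, 36.7 and 9.54 FPKM in RBX2iCKO and 6.98, 3.35, 8.20 and 6.34 FPKM in WT ventricles. Every RBX2iCKO library was above every WT library, and RBX2iCKO replicate 3 stood far above its group. Means were 18.0 ± 12.6 FPKM in RBX2iCKO and 6.22 ± 2.06 FPKM in WT (SD, n = 4 each), a 2.89-fold difference (log2 1.25, SE 0.38, limma adjusted p = 0.0306). Without RBX2iCKO replicate 3 the fold was 1.88, with a mean of 11.7 ± 1.94 FPKM in the remaining 3 RBX2iCKO libraries, and the difference was still called (log2 0.86, adjusted p = 0.0217). It was not called without RBX2iCKO replicate 1 or WT replicate 1, 2 or 4 (adjusted p up to 0.0825), nor after scaling (log2 1.01, adjusted p = 0.0818), where the groups overlapped.

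Cdkn1b (ENSMUSG00000003031, chr6:134920401-134925513, plus strand) encodes p27, which holds many resting cells out of the cycle. It had 13.9, 11.7, 17.4 and 11.9 FPKM in RBX2iCKO and 9.99, 9.08, 9.64 and 8.80 FPKM in WT ventricles. The groups did not overlap, and the WT libraries lay close together. Means of 13.7 ± 2.61 FPKM in RBX2iCKO and 9.38 ± 0.536 FPKM in WT (SD, n = 4 each) gave a 1.46-fold difference (log2 0.49, SE 0.12, limma adjusted p = 0.0125), which was called with each library left out in turn. After scaling it was 0.24 (adjusted p = 0.18).

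Cdkn1c, which encodes p57 and was named after its values were seen, had 8.81, 10.1, 4.86 and 10.8 FPKM in RBX2iCKO and 8.34, 7.13, 7.21 and 9.99 FPKM in WT ventricles. The groups overlapped, and RBX2iCKO replicate 3 was the lowest of the 8 libraries. The log2 difference was 0.03 (limma adjusted p = 0.908), and -0.21 after scaling (adjusted p = 0.497).

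In a group of 4 libraries each gene has a highest and a lowest one, so a library is often at an extreme. RBX2iCKO replicate 2 was the highest of its group for Ccnd1, Ccnd2, Cdkn2a, Cdkn2b and Cdkn2c and the lowest for Cdkn1b. RBX2iCKO replicate 3 was at an extreme of its group for 7 of the 10 genes, though Dixon's check for a far value passed its limit for Cdkn1a alone. It had the highest Cdkn1a and Cdkn1b of its group and the lowest Ccnd1, Ccnd2, Ccnd3, Cdk4 and Cdk6, and lay between the others for Cdkn2a, Cdkn2b and Cdkn2c. The summed level of Cdkn1a and Cdkn1b, without Cdkn1c, over the summed D-type cyclin level was 0.348, 0.268, 0.901 and 0.268 in RBX2iCKO replicates 1 to 4 and 0.287, 0.193, 0.318 and 0.243 in WT replicates 1 to 4. Outside that replicate the groups overlapped. The same library was the lowest of its group in summed fibroblast (1661 FPKM), endothelial (303 FPKM), macrophage (209.3 FPKM) and mural markers (257 FPKM) and in mitochondrially encoded transcripts (14.6% of fragments) and the highest in summed cardiomyocyte markers (38104 FPKM), and the part of these in its values was not tested.

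The Cdkn1a promoter is shown because p53 is the best known activator of the gene. The 250 bases before the upstream RefSeq start (GRCm38.p6, chr17:29090729-29090978, plus strand) hold 1 match to a pair of p53 core letters, CATG then 6 bases of any kind then CATG, in capitals, 48 to 35 bases before the start. Of the 32851 windows, 0.49% held a match, searched on both strands, and the window of the other RefSeq start of Cdkn1a held none. The match is a description of these letters, not of binding in these hearts.

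Cdkn1a: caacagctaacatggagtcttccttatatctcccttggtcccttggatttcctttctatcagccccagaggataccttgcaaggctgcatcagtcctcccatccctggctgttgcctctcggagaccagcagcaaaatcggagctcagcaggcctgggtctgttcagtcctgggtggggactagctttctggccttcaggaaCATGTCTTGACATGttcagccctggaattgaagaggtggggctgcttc

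Of these 3 INK4 inhibitors, Cdkn2c had by far the highest level, about 90.3% of their summed FPKM in RBX2iCKO and 88.3% in WT, and it rose. The INK4 gene Cdkn2d, not among the 10, stood above Cdkn2c in every library, at 9.61 to 14.5 FPKM in RBX2iCKO and 7.99 to 9.43 FPKM in WT. Cdkn2c (ENSMUSG00000028551, chr4:109660876-109667189, minus strand) encodes p18INK4c. It had 8.37, 9.18, 7.61 and 7.01 FPKM in RBX2iCKO and 4.28, 4.57, 5.68 and 4.90 FPKM in WT ventricles. Every RBX2iCKO library lay above every WT library, also after scaling. Means were 8.04 ± 0.943 FPKM in RBX2iCKO and 4.86 ± 0.601 FPKM in WT (SD, n = 4 each), a 1.66-fold difference (log2 0.63, SE 0.10, limma adjusted p = 0.00331).

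Cdkn2c was the one gene of the 10 still called after scaling, with a 1.37-fold difference (log2 0.39, SE 0.10, limma adjusted p = 0.0201). With each library left out in turn the deposited difference was 0.57 to 0.69 and was called throughout (adjusted p = 0.00402 to 0.0115). The scaled call was lost without RBX2iCKO replicate 1 or 2 or WT replicate 1 or 4 (adjusted p up to 0.0561). The ratio of Cdkn2c to the summed Cdk4 and Cdk6 level was 0.332, 0.377, 0.372 and 0.326 in RBX2iCKO and 0.240, 0.295, 0.320 and 0.243 in WT replicates 1 to 4. The inhibitor transcript was higher relative to those of its target kinases in every RBX2iCKO library than in any WT library, narrowly (0.326 against 0.320). This ratio over chosen genes is a description and carries no test.

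The Cdkn2c promoter is shown because that gene kept its call under scaling. The 250 bases before the upstream RefSeq start (GRCm38.p6, chr4:109666757-109667006, minus strand) are 77.2% G and C, against a median of 52.4% over all windows. They hold 3 copies of GGGCGG, the GC box bound by SP1 and related factors, in capitals, which start 95, 51 and 40 bases before the start site. At least 1 copy, on either strand, stood in 32.7% of all windows and 3 or more in 8.47%. The window of the other RefSeq start of Cdkn2c is 42.8% G and C and holds none.

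Cdkn2c: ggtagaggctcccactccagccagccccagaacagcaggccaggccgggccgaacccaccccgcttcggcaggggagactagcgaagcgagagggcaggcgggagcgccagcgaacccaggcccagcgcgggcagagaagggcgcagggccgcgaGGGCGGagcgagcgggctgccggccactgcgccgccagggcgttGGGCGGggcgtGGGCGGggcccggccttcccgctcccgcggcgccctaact

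Cdkn2a and Cdkn2b lie 11645 bases apart on chromosome 4 and were near the limit of detection. Cdkn2a (ENSMUSG00000044303, chr4:89274471-89294653, minus strand) encodes p16INK4a and, from another first exon and reading frame, p19ARF, which gene-level values cannot separate. Its levels of 0.238, 0.436, 0.290 and 0.320 FPKM in RBX2iCKO and 0.302, 0.111, 0.445 and 0.0991 FPKM in WT ventricles rest on 24 fragments over the RBX2iCKO and 17 over the WT libraries. The groups overlapped (two-sided exact permutation p = 0.429 over 70 assignments, which allow no p below 0.0286). Cdkn2b (ENSMUSG00000073802, chr4:89306299-89311039, minus strand), which encodes p15INK4b, had 0.574, 0.623, 0.521 and 0.445 FPKM in RBX2iCKO and 0.427, 0.427, 0.286 and 0.477 FPKM in WT ventricles, from 62 and 46 fragments. Its difference did not pass the threshold (two-sided exact permutation p = 0.0571, and 0.457 after scaling).

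**Figure D2:**
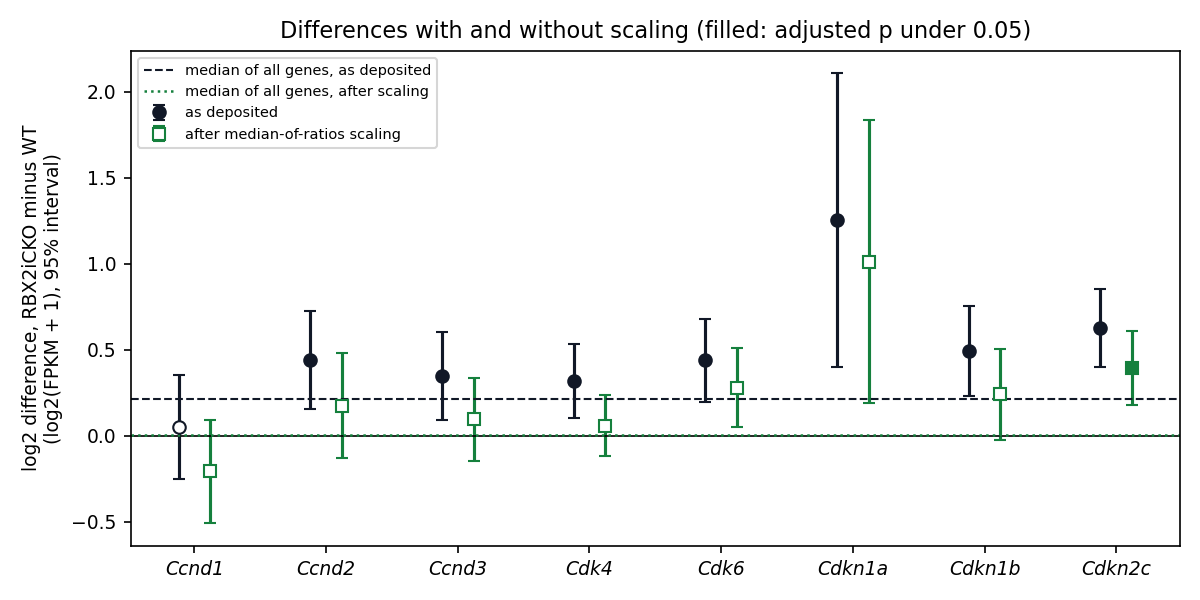
Log2 difference, RBX2iCKO minus WT, of log2(FPKM + 1) for the 8 tested genes, as deposited (circles) and after median-of-ratios scaling (squares), with 95% intervals, filled where the adjusted p is under 0.05. All circles except Ccnd1 but only the Cdkn2c square are filled, and the dashed line marks the deposited median of all genes at 0.21.

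The order of levels was much alike in both groups. In RBX2iCKO, Ccnd2 led, followed by Cdk4, Cdkn1a, Ccnd1, Ccnd3 and Cdkn1b, whose neighbouring ranges overlapped, and then by Cdkn2c, Cdk6, Cdkn2b and Cdkn2a, whose ranges did not. In WT, Ccnd2 led Cdk4, Ccnd1, Ccnd3, Cdkn1b, Cdkn1a, Cdkn2c, Cdk6, Cdkn2b and Cdkn2a. Neighbours that overlapped there were Cdk4 with Ccnd1, Ccnd3 with Cdkn1b, Cdkn1a with Cdkn2c, and Cdkn2b with Cdkn2a. Cdkn1a ranked 3 in RBX2iCKO and 6 in WT, but without RBX2iCKO replicate 3 its RBX2iCKO mean of 11.7 FPKM lay below those of Ccnd1 (19.1), Ccnd3 (16.1) and Cdkn1b (12.5), as in WT. The ratio of Cdkn1a to Cdkn1b was 0.955, 1.04, 2.12 and 0.801 in RBX2iCKO and 0.699, 0.369, 0.851 and 0.720 in WT replicates 1 to 4, with overlap.

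**Figure D3:**
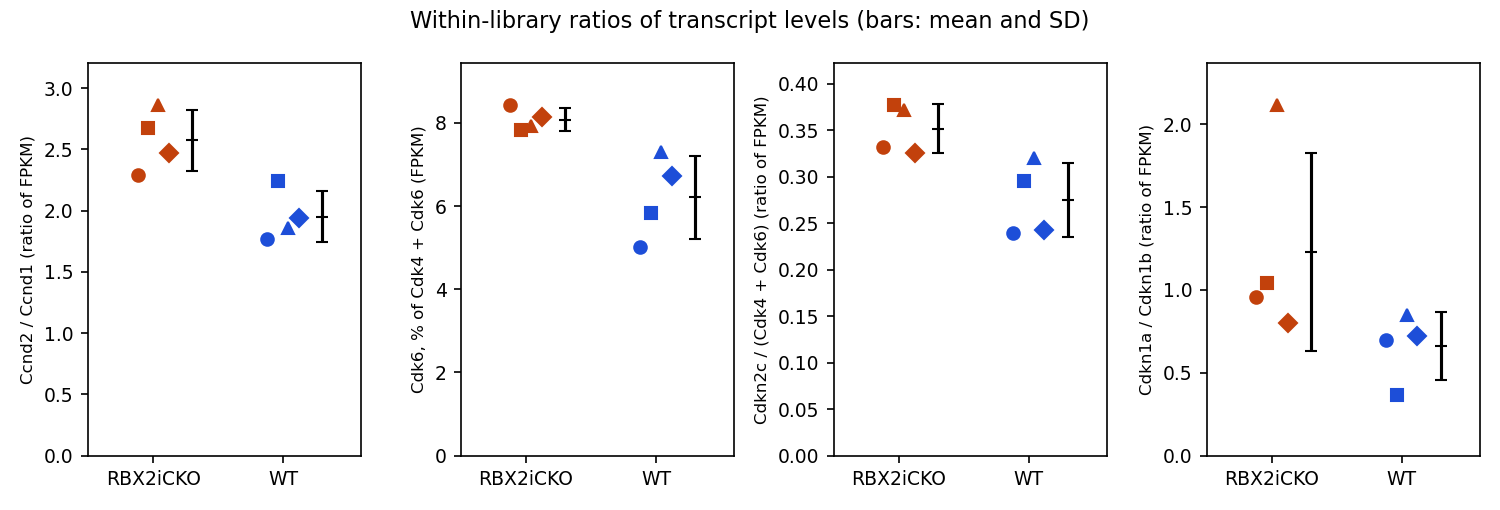
Ratios of FPKM within each of the 4 RBX2iCKO and 4 WT libraries, 1 symbol per replicate, with mean and SD as bars. The groups do not overlap for Ccnd2 over Ccnd1, for the percentage of Cdk6 in Cdk4 plus Cdk6 and for Cdkn2c over Cdk4 plus Cdk6, and they overlap for Cdkn1a over Cdkn1b.

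The title numbers of the samples fall into separate series, whose meaning the labels do not give. Within the series that holds RBX2iCKO replicate 1 and WT replicates 1 and 2, the log2 differences were 0.36 for Ccnd2, 0.48 for Ccnd3, 0.53 for Cdk4, 0.72 for Cdk6, 1.28 for Cdkn1a, 0.50 for Cdkn1b and 0.79 for Cdkn2c. Within the series of the other 5 libraries they were 0.49, 0.33, 0.20, 0.25, 1.08, 0.50 and 0.50 in the same order of genes. All 7 differences were above 0 in both series, with Ccnd1 at 0.16 and 0.02. After scaling, Cdk4 stood at 0.23 and -0.03 and Ccnd1 at -0.14 and -0.21, and the other 6 called genes were above 0 in both. The 7 genes had been called higher from these same libraries, so their signs within the series are no separate support. The share of all tested genes above 0 in both series was not counted. With the series as a covariate, Cdkn1a was no longer called (limma adjusted p = 0.0522) and the other 6 genes were.

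Some read counts of these genes cannot be assigned with certainty, because the strand setting of the counting is not given. Exons on the opposite strand share 1100 bases with Ccnd1 (LTO1, 7.38 FPKM in RBX2iCKO and 6.47 FPKM in WT), 641 bases with Cdk4 (Tspan31, 15.6 and 13.7 FPKM) and 361 bases with Ccnd3 (Bysl, 6.32 and 5.91 FPKM). They also share 372 bases (Gm43126) and 368 bases (9330179D12Rik, 0.761 and 0.529 FPKM) with Ccnd2. For Cdk6 the shared stretch is 368 bases (Gm17590) and for Cdkn1a 273 bases (AC167363.2). The gene lengths behind the deposited FPKM, inferred as lengths that give whole fragments, were shorter than the annotated exons for most of the 10 genes. The length was 3735 bases for Cdk6, against 13989 bases of annotated exons, 3858 against 8775 for Ccnd3 and 5701 against 9409 for Ccnd2. The order of levels and the percentages and ratios between genes depend on these lengths.

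For each of the 7 called genes, the tested protein-coding genes nearest to it over the 8 libraries were named by the root mean square difference of centred log2(FPKM + 1) values. For Cdkn2c they were Dusp27 (0.0661), Prkcd (0.0766) and Mapk7 (0.0786), and for Cdkn1a, at larger distances, H2-T23 (0.152), Tap1 (0.188) and Mndal (0.207). Cdkn1b lay nearest to Cntrl (0.0655), Ccnd2 to Sypl2 (0.0855), Ccnd3 to Pard6g (0.0462), Cdk4 to Fbxl8 (0.0454) and Cdk6 to Spred2 (0.0497).

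The list of partners held RB, E2F and cyclin E genes, the other inhibitors and the subunits of the CDK-activating kinase. Of its 22 genes, 19 were tested, 6 rose and 1 fell, where 33.5% of all tested genes were higher and 3.52% lower, and its median was 0.25. After scaling 1 rose and 2 fell, against 8.14% and 11.6% of all genes, with a median of 0.02. Neither Rb1, Rbl1 nor Rbl2 was called. E2f1, an activator of S-phase genes, averaged 2.14 ± 0.660 FPKM in RBX2iCKO and 0.633 ± 0.102 FPKM in WT (SD, n = 4 each), 3.38-fold higher, and was called before and after scaling (limma adjusted p = 0.00315 and 0.00606). Cdkn2d, the remaining INK4 gene, averaged 12.4 ± 2.40 FPKM in RBX2iCKO and 8.60 ± 0.623 FPKM in WT. It was called only as deposited (limma adjusted p = 0.0193, and 0.211 after scaling). E2f3, E2f5, Ccne1, which encodes a cyclin of CDK2, and Mnat1, chosen after its values were seen, were also called only as deposited. E2f6, a repressor, fell to 33.6 ± 2.25 FPKM in RBX2iCKO, against 39.5 ± 2.35 FPKM in WT (adjusted p = 0.0339, and 0.00261 after scaling). The count of partners called lower was 1 without RBX2iCKO replicate 2 and 0 without each of the other 7 libraries.

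Genes of replication and mitosis, which follow the G1 step, rose in most cases as deposited. Of 30, 26 were tested and 22 rose, 15 after scaling and 11 under quantile normalization, and none fell, with a median of 0.60 (0.50 after scaling). The shares of all tested genes called higher were 33.5%, 8.14% and 6.62% in these fits. Cdk1, the mitotic kinase, averaged 1.63 ± 0.671 FPKM in RBX2iCKO and 0.203 ± 0.0527 FPKM in WT (SD, n = 4 each), 8.03-fold higher (limma adjusted p = 0.00293, and 0.00424 after scaling). Mcm7, a subunit of the replicative helicase, averaged 5.67 ± 0.751 FPKM in RBX2iCKO and 2.97 ± 0.264 FPKM in WT (adjusted p = 0.00175), and Rrm2, Top2a and Cdc20 were called too. Pcna, the replication clamp, averaged 21.6 ± 1.58 FPKM in RBX2iCKO and 20.4 ± 1.73 FPKM in WT, and neither it nor Rrm1 was called. The summed level was 62.1 to 114 FPKM in RBX2iCKO and 41.8 to 48.6 FPKM in WT, lowest within RBX2iCKO in replicate 3. Beside these, fibroblast markers rose in 11 of 12 cases, and their part was not tested.

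Of 25 p53 target genes, Cdkn1a not among them, 23 were tested and 13 rose (4 after scaling, when 2 fell), with a median of 0.34 (0.11 after scaling), where 33.5% of all tested genes were called higher (8.14% after scaling, when 11.6% were lower). Phlda3, an inhibitor of AKT, averaged 16.9 ± 1.92 FPKM in RBX2iCKO and 7.25 ± 1.73 FPKM in WT (SD, n = 4 each, limma adjusted p = 0.00166, and 0.00256 after scaling), and Bbc3, Trp53inp1 and Ckap2 were also called on both scales. Ckap2 is also a mitotic spindle gene. Mdm2, chosen after its values were seen, averaged 20.8 ± 0.776 FPKM in RBX2iCKO and 20.6 ± 1.28 FPKM in WT and was not called (adjusted p = 0.885). The count was 8 without RBX2iCKO replicate 2 or WT replicate 2.

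Of 20 genes for the turnover of these cyclins and inhibitors, 18 were tested, 5 rose and none fell, with a median of 0.10, and after scaling 1 rose and 7 fell with a median of -0.17. Of all tested genes 33.5% were called higher as deposited, and after scaling 8.14% higher and 11.6% lower. Cks1b, the cofactor with which SKP2 recognises p27, rose on both scales, with 5.07 ± 1.51 FPKM in RBX2iCKO and 2.499 ± 0.577 FPKM in WT (SD, n = 4 each, limma adjusted p = 0.0108, and 0.0447 after scaling). Skp2 itself was under the level needed for the test. Cul4b, Fbxo4, Btrc and Ddb1, all ubiquitin ligase subunits, rose as deposited only. Cryab and Skp1a, the genes of this list with the highest levels, were among those that fell after scaling only. Their scaled log2 differences were -0.44 and -0.36 (limma adjusted p = 0.00456 and 0.00707). Of 24 genes upstream of D-type cyclins, 23 were tested and 13 rose as deposited, and after scaling 1 rose and 2 fell, against the same shares of all genes. The one called on both scales was Wwtr1, the TAZ coactivator of the Hippo pathway, with 25.7 ± 3.09 FPKM in RBX2iCKO and 16.1 ± 1.47 FPKM in WT (adjusted p = 0.00305, and 0.0193 after scaling).

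**Figure D4:**
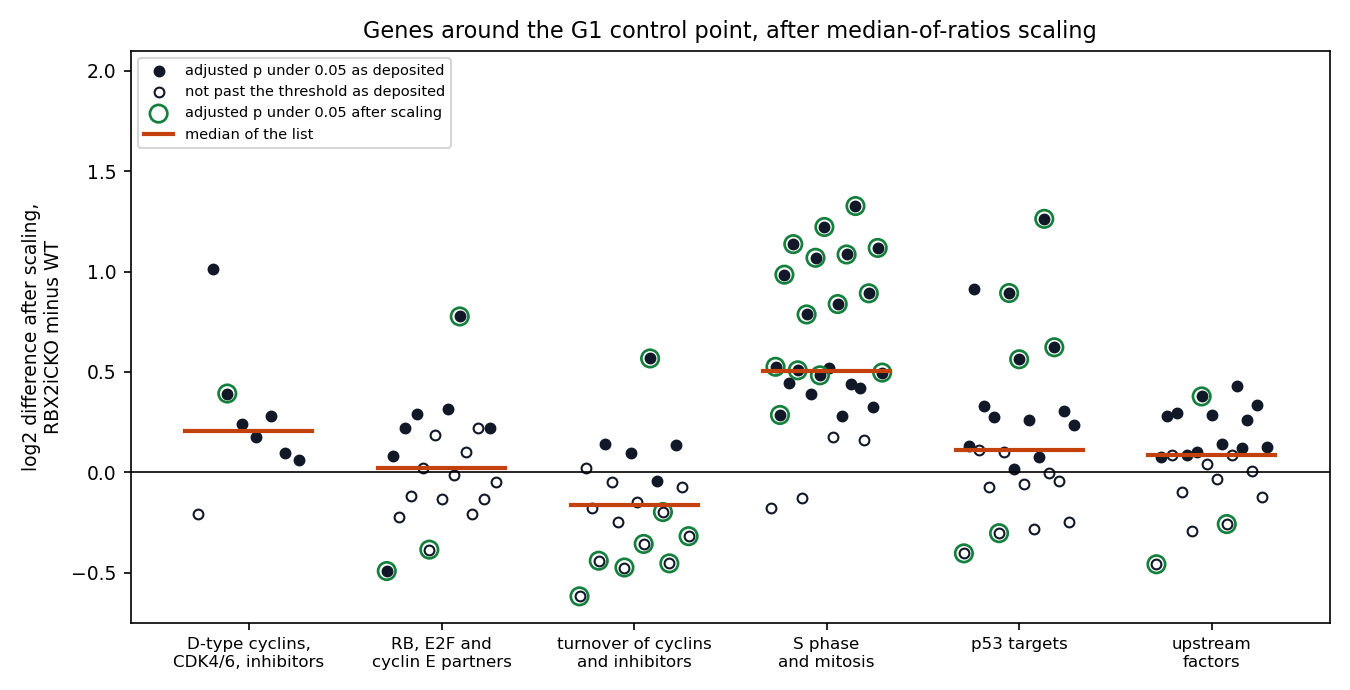
Log2 difference after median-of-ratios scaling, RBX2iCKO minus WT, of each tested gene of the cyclins, kinases and inhibitors and of 5 related lists, with the list median as a bar. Filled points passed the test as deposited and ringed points after scaling, and the median of replication and mitosis genes stands at 0.50.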

How the data were processed

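PolyA RNA of minced mouse ventricles was sequenced by a commercial provider, per the labels' protocols. The authors deposited FPKM values for 35275 genes, 1 column per library, and every column was matched to a sample by its title. The build is mm10, per the submitters' processing notes, while neither labels nor headers name an aligner, counter, annotation or strand setting. Symbols and coordinates come from GENCODE M21, which holds 34490 (97.8%) of the identifiers.

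Groups follow the genotype label, and replicate numbers, given in accession order, only name libraries. Libraries of 1 group were not copies of each other (chi-square per degree of freedom 10.2 to 57.7). The log2(FPKM + 1) values of 13050 genes went through limma (version 3.58.1, R 4.3.3, eBayes with trend, two-sided, Benjamini-Hochberg, threshold 0.05), and figures and sequences were handled in Python 3.11.15. Cdkn2a and Cdkn2b had an exact permutation test. Low FPKM values step by the worth of 1 fragment (0.0434 to 0.054 FPKM in 1 kilobase), and whole fragments were recovered for 13046 tested genes at a tolerance of 0.01. Run on them as an alternative added to the FPKM test, limma voom called 4485 genes higher and 468 lower. Median-of-ratios size factors were 1.08 to 1.13 in RBX2iCKO and 0.849 to 0.946 in WT libraries. On simulated data for this comparison (12527 genes, 200 changed), 83.6%, 96.9% and 100% of genes changed 1.5-fold, 2-fold and 4-fold were recovered. There, 11 unchanged genes were called. The simulated libraries had WT means and 1 dispersion (0.00646) estimated from WT libraries, with no shift of all genes. They do not hold the spread among RBX2iCKO libraries, so these rates may not apply to the real comparison.

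The 10 genes, the lists and the tests were chosen with earlier results of these data known. All 10 genes were described, and of each list the 5 genes of smallest p and the 3 of highest mean FPKM could be named, with the 3 nearest profiles of each called gene and, of marker lists, the 3 of highest mean. Other settings covered the pseudocount, filter, scaling, mitochondrially encoded genes, trend, array weights, title series and leaving out each library. Where mitochondrially encoded genes were removed, each library was rescaled to its former summed FPKM before the filter. Promoter sequences are from RefSeq (GRCm38.p6), where 8 of the 10 genes have 12 windows. The level of 1 lymphocyte marker and the summed level of the lymphocyte list are not reported here.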

Additional observations from a re-analysis of the deposited data

Results flagged for a closer look

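Among 130 sets of 4 values, 6 had a highest or lowest library farther from the others than Dixon's 95% limit, where chance gives about 6.5. Cdkn1a stood at 36.7 FPKM in RBX2iCKO replicate 3, with the other RBX2iCKO libraries at 9.54 to 13.3 FPKM. In that library Sesn1, another p53 target, stood at 71.8 FPKM, with the others at 42.8 to 47.6 FPKM. The summed level of the 25 listed p53 targets in RBX2iCKO replicate 3 was 629 FPKM, within the RBX2iCKO range of 577 to 645 FPKM. E2f1 was at 0.784 FPKM in WT replicate 1, with the other WT libraries at 0.560 to 0.595 FPKM. WT replicate 3 was high in Top2a (0.886 FPKM, others 0.518 to 0.579), in Ckap2 (0.478 FPKM, others 0.191 to 0.208) and in the T-cell marker Cd3g (1.46 FPKM, others 0.242 to 0.390). No cause was tested for any of them.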

How the results depend on the processing

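The count of the 10 genes called higher depended on scaling: it was 7 as deposited and 1 under median-of-ratios scaling, quantile normalization and removal of mitochondrially encoded genes, and 1 with scaling and the title series together. Leaving out each library gave 4 to 8, with 4 without RBX2iCKO replicate 1 or 2 or WT replicate 1, 2 or 3, and 0 to 1 after scaling. Leaving out libraries after scaling and the title series after scaling were added after seeing the data. With no filter 5 were called, without Ccnd3 and Cdkn1a. For scaling, quantile normalization and mitochondrial removal in turn, genes called higher over the table were 1062, 864 and 1279, and genes called lower 1512, 1241 and 985. Leaving out each library gave 2895 to 4386 genes higher, fewest without WT replicate 2. In the same order of settings, RB and E2F partners called higher were 1, 1 and 2, turnover genes 1, 0 and 1, p53 targets 4, 4 and 6, and upstream genes 1, 1 and 1. Partners called lower were 2 under scaling and 2 under quantile normalization. Turnover genes called lower were 7, 3 and 4, p53 targets 2, 1 and 1, and upstream genes 2, 2 and 1. Turnover genes called lower were also 1 with a mean of at least 1 FPKM, 3 with array weights and 1 with voom. Replication and mitosis genes called higher were 13 of 17 tested with a mean of at least 1 FPKM and 11 under quantile normalization. Leaving out each library gave 0 to 1 partners lower, 0 to 2 turnover genes lower, 8 to 12 p53 targets higher and 0 to 1 upstream genes lower. The median difference of all genes was 0.27 with a pseudocount of 0.1, 0.0914 with no filter, 0.00437 after scaling, -0.0225 after quantile normalization, 0.0675 without mitochondrial genes and 0.28 with voom, and 0.19 to 0.22 with each library left out. The cause was not tested. No called gene of the 10 changed sign under these settings, and Cdkn2c was called under each of them except scaling without RBX2iCKO replicate 1 or 2 or WT replicate 1 or 4. No paired analysis was possible because the replicate numbers were given in accession order and pair nothing. Counting depth limits the precision for Cdkn2a and Cdkn2b, with at most 9 and 20 fragments in a library.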
